A study of Mus musculus with 12 samples.

Results

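The interleukin 6 (Il6) family signaling genes examined here were 9 genes chosen by name: the cytokines Il6, Osm and Lif, the receptors Il6ra, Il6st and Osmr, the kinase Jak1, the transcription factor Stat3 and the inhibitor Socs3. They were 9 of 55421 genes in the deposited count table, and all 9 were among the 15999 genes that passed the low-count filter and were tested. RNA was sequenced from 12 libraries of mouse bone marrow cells sorted as endothelial cells, with 3 libraries in each of 4 groups. Each library came from a separate mouse, by the study's methods. Controls were naive C57BL/6J mice. Hypertension was induced in C57BL/6J mice by chronic angiotensin II, delivered by implanted minipumps. Atherosclerosis was modeled in mice of the Apoe(tm1Unc) strain, which lack apolipoprotein E and were fed a western diet. The myocardial infarction (MI) group were C57BL/6J mice sampled 2 days after infarction, according to the labels, by permanent ligation of a coronary artery. The study's text names a different day for this group, and which is right could not be settled here. All mice were 20 weeks old. The controls had no pump, western diet or sham operation, so pump, genotype, diet and surgery cannot be told apart from the disease each accompanies. The question addressed was how each disease alters gene expression in the bone marrow vascular niche.

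Cytokines of the Il6 family signal through receptor complexes that share gp130, the product of Il6st. Il6 first binds Il6ra, whereas oncostatin M (Osm) pairs gp130 with the oncostatin M receptor (Osmr) and leukemia inhibitory factor (Lif) pairs it with the Lif receptor. The bound complex activates Janus kinases such as Jak1, which phosphorylate Stat3, and Stat3 induces Socs3, an inhibitor that binds gp130 and the kinases and ends the signal. In bone marrow, Il6 is made by endothelial, stromal and myeloid cells and promotes myeloid output from hematopoietic progenitors.

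The libraries held between 17007100 and 25136900 counts each. Apoe, the deleted gene, was at 7.28 to 14.8 CPM (read counts scaled to the size of the library) in the 3 atherosclerosis libraries and at 450.5 CPM or more in the other 9, as labelled. The 14 endothelial markers together made up only 150 to 280 CPM, although each was detected, whereas 12 neutrophil markers made up 33475 to 96710 CPM. Pecam1, which encodes CD31, ran from 17.2 to 31.8 CPM. Values below therefore describe the sorted sample and cannot be assigned to endothelial cells alone, and in such bulk samples fewer cells of a type and less RNA per cell cannot be told apart. Atherosclerosis replicate 2, MI replicate 2 and atherosclerosis replicate 4 correlated least with the other 11 libraries, with mean Pearson correlations of 0.960, 0.966 and 0.970 on log2 CPM, against 0.972 to 0.981 for the rest.

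Levels of the 9 genes spanned a wide range. They were compared with each other as CPM per kilobase of exon, because a longer transcript yields more fragments. Exon length was the union over all annotated transcripts of a gene, so ranks and ratios between genes depend on that choice. In controls the order was Jak1, at 61.5 ± 3.82 (mean ± SD, n = 3), then Osm at 50.8 ± 5.19, Stat3 at 23.9 ± 4.55, Socs3 at 7.42 ± 2.00, Il6ra at 3.99 ± 1.29, Il6st at 2.52 ± 0.495, Il6 at 0.770 ± 0.0737, Lif at 0.246 ± 0.0589 and Osmr at 0.0859 ± 0.0334 CPM per kilobase. The libraries of neighbors in this order did not overlap. Among all genes tested, ranked by mean CPM per kilobase, Jak1 stood at percentile 95.2, Osm at 92.0, Il6 at 33.2, Lif at 5.25 and Osmr at 2.37. Of the 3 cytokines, the oncostatin M transcript was by far the most abundant: per kilobase, Osm exceeded Il6 by a median of 69.9 times in controls, 30.9 times in hypertension, 20.3 times in atherosclerosis and 49.4 times in MI. Its own receptor Osmr was per kilobase the lowest of the 9 genes in controls, hypertension and atherosclerosis. The exon length used was 12113 bases for Osmr and 4350 for Lif. In CPM without that scaling, the mean of Osmr exceeded that of Lif in hypertension (0.819 against 0.703) and atherosclerosis (1.60 against 0.717). In controls it was 1.04 against 1.07 CPM. In MI, Lif was lowest, at 0.0766 ± 0.0350 CPM per kilobase, but its libraries overlapped those of Osmr. The order of the means otherwise held in the 4 groups, but neighbors overlapped in each disease. In hypertension Il6ra overlapped both Socs3 and Il6st, and in MI Jak1 overlapped Osm. In atherosclerosis each gene overlapped the next in the order except Il6ra with Il6st and Il6 with Lif, and Il6, at 2.38 ± 0.0364 CPM per kilobase, overlapped Il6st, at 2.49 ± 0.613. The ratio of Il6 to Il6st per kilobase was 0.247 to 0.435 in control libraries and 0.749 to 1.19 in atherosclerosis libraries.

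**Figure D1:**
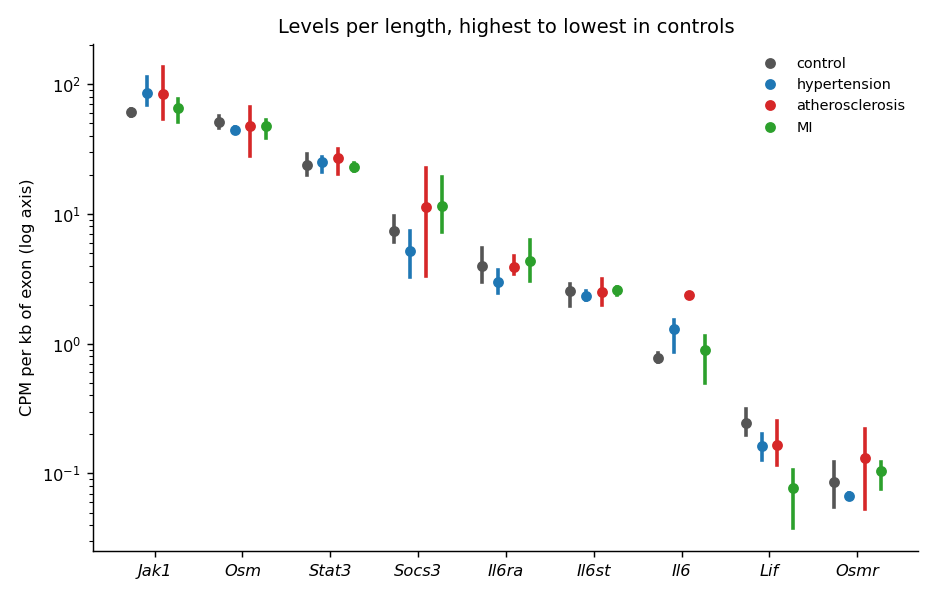
Level of the 9 genes per length in each group (y axis, CPM per kilobase of exon, log scale). Points are means of 3 libraries and lines run from the lowest to the highest library; the genes are ordered as in controls, and the Il6 point of atherosclerosis, at 2.38, stands level with Il6st.

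Il6, the cytokine that names the family, lies on chromosome 5 (GRCm38, chr5:30013114-30019981, plus strand) and overlaps no other annotated gene. Control libraries held 2.07, 1.79 and 1.75 CPM, and hypertension libraries held 2.09, 3.68 and 3.66 CPM. Atherosclerosis libraries held 5.87, 5.70 and 5.76 CPM, and MI libraries 1.21, 2.80 and 2.49 CPM. All 3 atherosclerosis libraries thus lay above the other 9, the hypertension libraries began just above the highest control, and MI libraries fell on both sides of the controls. These values rested on 22 to 132 counts per library. The atherosclerosis libraries differed from each other by a coefficient of variation of 1.53%, less than the 9.37% that counting error alone gives at their mean count.

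In atherosclerosis the log2 fold change of Il6 against controls was 1.63 (SE 0.32, 95% interval 0.94 to 2.32), a 3.09-fold difference with an unadjusted p = 0.000207, the gene ranking 34 of 15999 by p. The adjusted p was 0.0973 in the quasi-likelihood test of edgeR, adjusted by Benjamini-Hochberg over all genes tested, so the difference did not pass 0.05. It passed with edgeR's likelihood-ratio test, at adjusted p = 0.00134, and with DESeq2, at 0.000644. The likelihood-ratio test does not allow for the uncertainty of a spread estimated from few mice per group. In the quasi-likelihood test the difference also passed when MI replicate 2 was left out of the shared estimate of spread (adjusted p = 0.0356). It did not pass that test when any of the other 11 libraries was left out, with an adjusted p of up to 0.472. Beyond these libraries, the study reports higher Il6 in atherosclerosis by real-time PCR of sorted marrow endothelial cells, with no change in hypertension or MI. It also reports more Il6 protein in blood and bone marrow in atherosclerosis. Because the study chose Il6 on these same libraries, the difference in them is not independent evidence. In hypertension the log2 fold change was 0.75 (SE 0.32, unadjusted p = 0.0358, adjusted p = 0.951 by the same quasi-likelihood test), and in MI it was 0.22 (SE 0.33, interval -0.49 to 0.92). Set directly against each other, atherosclerosis libraries exceeded MI libraries by a log2 difference of 1.41 (SE 0.32, adjusted p = 0.0890 in the quasi-likelihood test, 0.00630 in the likelihood-ratio test and 0.00336 in DESeq2). They exceeded hypertension libraries by 0.88 (SE 0.31, adjusted p = 0.646 in the quasi-likelihood test, with none of the 3 tools passing 0.05).

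**Figure D2:**
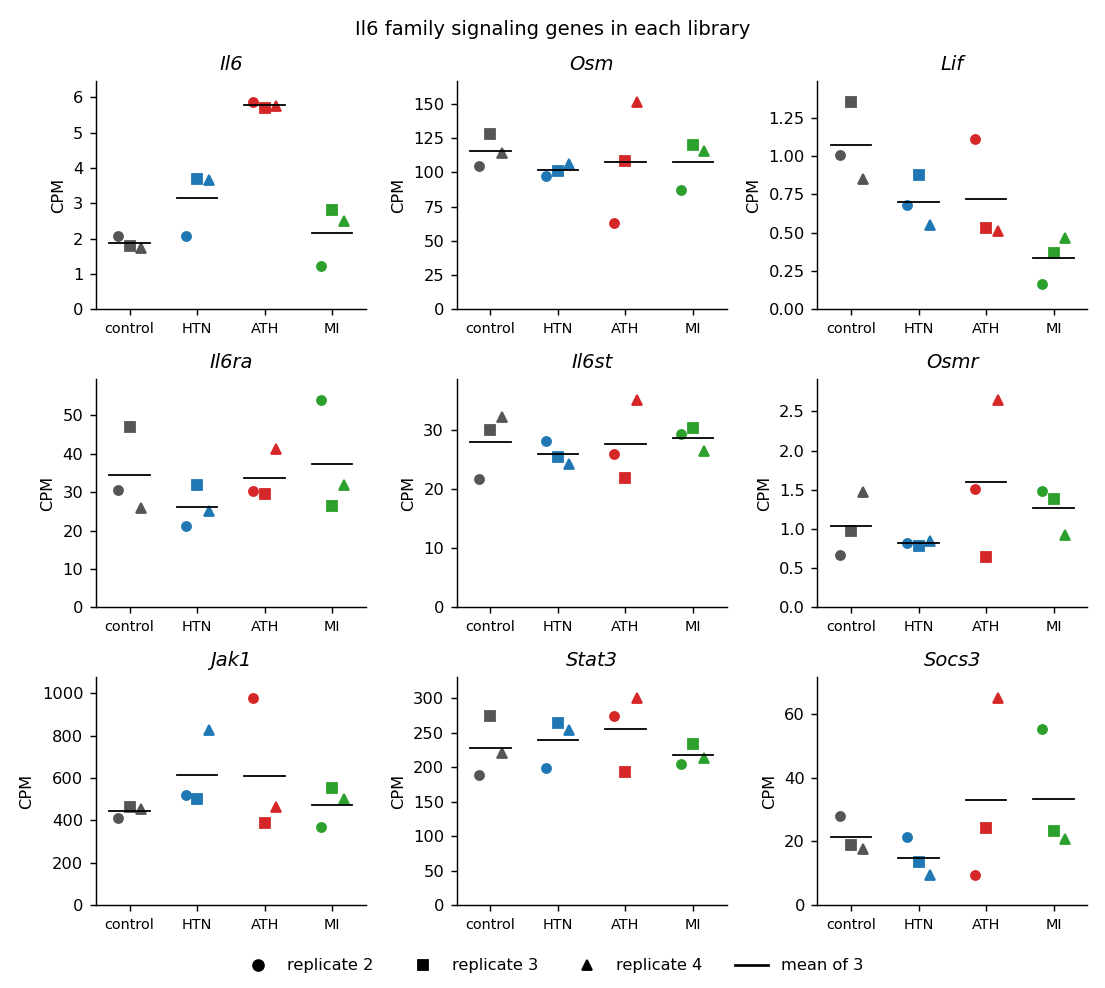
CPM of each of the 9 genes (y axes, linear from 0) in every library, by group (x axes: control, HTN for hypertension, ATH for atherosclerosis, MI). Symbols mark the replicate number and black lines the mean of 3; the 3 atherosclerosis libraries of Il6 sit between 5.70 and 5.87 CPM, above all others, and the 3 MI libraries of Lif sit below every control.

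The Il6 promoter is shown because Il6 had the largest difference from controls among the 9 genes in hypertension and atherosclerosis, and those of Lif and Socs3 because Lif had the largest in MI and Socs3 is the target through which Stat3 limits the signal. RefSeq promoter sequences (GRCm38.p6) were matched for 8 of the 9 genes, Osm being the exception. The 250 bases before each annotated start, written 5′ to 3′ in the direction of the gene, read as follows, with capitals marking matches to 5 motifs. These starts are RefSeq's, whereas gene positions in the text are GENCODE's, so the Socs3 window lies inside the printed span of Socs3 and the end of the Lif window inside that of Lif.
Il6, chr5:30012864-30013113, plus strand: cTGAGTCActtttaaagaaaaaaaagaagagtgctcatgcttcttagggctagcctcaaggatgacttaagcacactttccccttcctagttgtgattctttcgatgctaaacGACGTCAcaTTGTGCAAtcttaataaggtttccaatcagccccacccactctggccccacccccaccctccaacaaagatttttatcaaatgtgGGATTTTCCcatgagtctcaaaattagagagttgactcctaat
Lif, chr11:4257318-4257567, plus strand: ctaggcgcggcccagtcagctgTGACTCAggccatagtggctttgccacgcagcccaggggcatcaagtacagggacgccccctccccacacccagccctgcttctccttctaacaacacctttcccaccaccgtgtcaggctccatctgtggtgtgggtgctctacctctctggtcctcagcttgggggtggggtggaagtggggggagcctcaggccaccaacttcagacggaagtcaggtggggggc
Socs3, chr11:117969367-117969616, minus strand: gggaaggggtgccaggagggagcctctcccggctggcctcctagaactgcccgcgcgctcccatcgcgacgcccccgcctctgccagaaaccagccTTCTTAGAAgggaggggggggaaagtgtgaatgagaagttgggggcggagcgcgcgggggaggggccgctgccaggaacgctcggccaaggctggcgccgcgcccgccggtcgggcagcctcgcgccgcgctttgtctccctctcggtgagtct
The motifs were GGANTTTCC for NF-kB, TGANTCA for AP-1, TTGNGCAA for C/EBP proteins, TGACGTC for the core of a cyclic AMP response element and TTCNNNGAA for STAT proteins, each searched on both strands. Il6 held 4 of them: the AP-1 motif at bases -249 to -243 from its start, the response element core at -137 to -131, the C/EBP motif at -128 to -121 and the NF-kB motif at -43 to -35. Of 32851 promoters of the same length, 1.07% held the NF-kB letters, 2.61% the C/EBP letters, 2.78% the response element core and 6.75% the AP-1 letters. Lif held the AP-1 motif alone, at -228 to -222. Socs3 held the STAT motif at -154 to -146, which 7.02% of promoters held, and was the only one of the 8 genes to do so in this window. Such matches describe letters and not occupied sites.

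Marker sums of other cell types were set beside Il6. In atherosclerosis, where Il6 was highest, the 10 macrophage markers summed to 989 to 1129 CPM, against 711 to 765 CPM in controls, and the 3 plasmacytoid dendritic cell markers to 79.0 to 123 CPM, against 73.9 to 75.9 CPM. The 5 plasma cell markers summed to 769 to 1166 CPM, against 370 to 733 CPM, so all 3 of these lists lay above controls in every atherosclerosis library. Jchain made up most of the plasma cell sum, with a median of 727 CPM over the 12 libraries, and the next marker, Sdc1, had 18.5 CPM. The 5 basophil and mast cell markers summed to 7024, 6306 and 2244 CPM in atherosclerosis replicates 2, 3 and 4, against 1795 to 2927 CPM in controls, and to 3343 to 4240 CPM in hypertension. Replicate 4 thus had a basophil and mast cell sum within the range of controls and an Il6 level, 5.76 CPM, as high as the other atherosclerosis libraries. Prss34 made up most of the basophil and mast cell sum, with a median of 2802 CPM over the 12 libraries, and the next marker, Mcpt8, had 78.0 CPM. Neutrophil markers overlapped between atherosclerosis and controls and lay below controls in hypertension. None of these sums passed an exact two-sided permutation test of 3 libraries against 3, whose smallest possible p is 0.1 (lowest adjusted p over 39 tests 0.433). The part of these cells in the Il6 difference was not tested. No marker of any list was at 0 in every library.

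Lipc, hepatic lipase, was among the genes whose log2 CPM followed Il6 most closely over the 12 libraries (Pearson r = 0.917, Spearman rho = 0.923). So were the uncharacterized transcript Gm37498 (0.911 and 0.895), the transcription factor Gata2 (0.911 and 0.874) and Six5, a homeobox factor (0.908 and 0.860). These values describe 12 points that share their group structure, so genes with any difference in the atherosclerosis group score high. Gata2 held 20.2, 18.4 and 22.1 CPM in controls and 35.0, 44.0 and 46.6 CPM in atherosclerosis. Its log2 fold change of 1.05 (SE 0.17) passed the quasi-likelihood test at adjusted p = 0.0342, but no longer with only the 2 groups in the fit (0.206), with the monocyte (0.0796) or endothelial (0.0818) marker sum as covariate, or when any of 9 of the 12 libraries was left out (up to 0.245). Lipc held 0.776 to 1.12 CPM in controls and 1.58 to 2.22 CPM in atherosclerosis, and Six5 0.465 to 0.758 and 1.53 to 1.99 CPM. Six5 lies 0.598 megabases from Apoe on chromosome 7, the targeted gene of the atherosclerosis group.

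**Figure D3:**
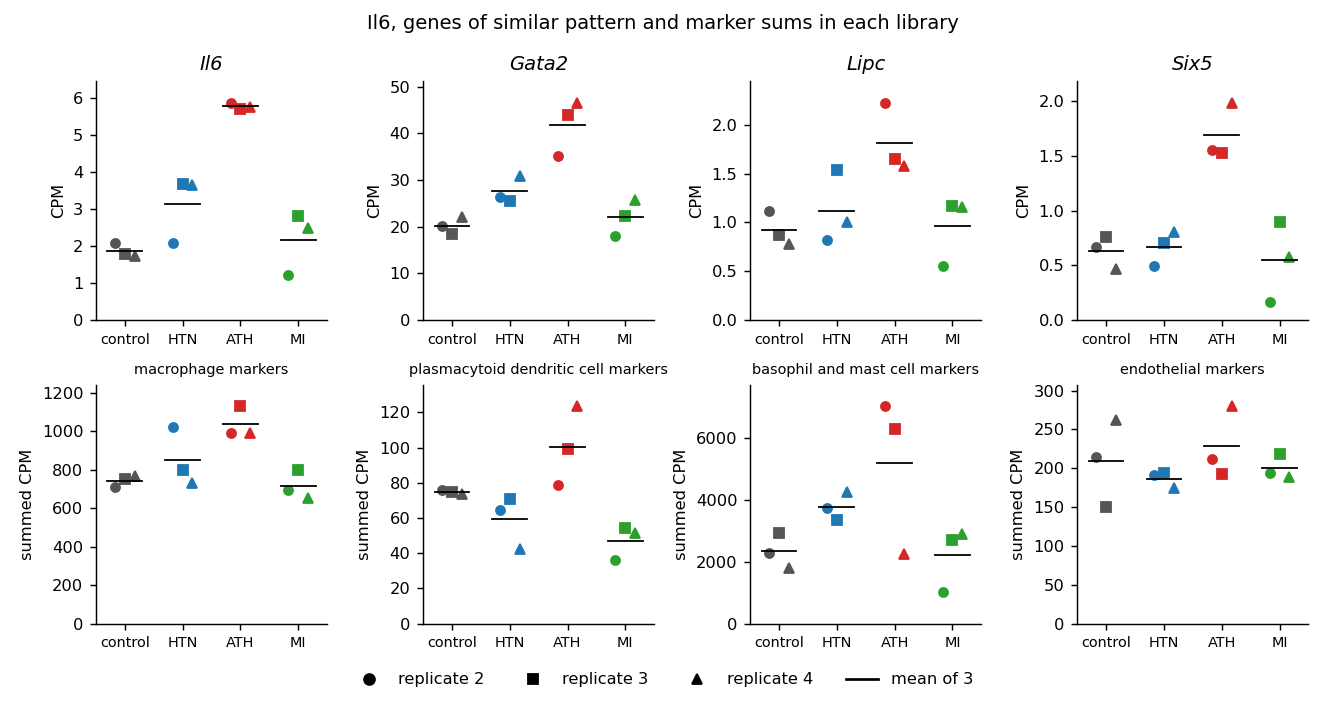
Top row, CPM of Il6 and of 3 genes of similar pattern, Gata2, Lipc and Six5, in every library; bottom row, summed CPM of macrophage, plasmacytoid dendritic cell, basophil and mast cell, and endothelial markers. Groups are on the x axes (HTN, hypertension; ATH, atherosclerosis), symbols mark replicates and lines the means; the macrophage sum is above controls in all 3 atherosclerosis libraries, whereas the endothelial sum overlaps in every group.

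Osm, encoding oncostatin M, a product of activated myeloid cells, lies on chromosome 11 (chr11:4236420-4241026), 16.5 kilobases before Lif. Control libraries held 104, 128 and 114 CPM and hypertension libraries 97.5, 101.2 and 105.7 CPM. Atherosclerosis libraries ranged more widely, from 63.3 CPM in replicate 2 to 108 and 151 CPM in replicates 3 and 4, and MI libraries held 86.8, 120 and 115 CPM. Libraries of every disease overlapped those of controls. The log2 fold changes were -0.19 in hypertension, -0.10 in atherosclerosis and -0.11 in MI, with an SE of 0.25 each, and their 95% intervals lay between -0.72 and 0.43. Without atherosclerosis replicate 2 the value in that group was 0.18, and without MI replicate 2 it was 0.03 in MI, so no direction can be given for either. The neutrophil marker sum was also lowest, over all 12 libraries, in atherosclerosis replicate 2 (33475 CPM), where Osm was lowest. That sum was highest in MI replicate 2 (96710 CPM), where Osm, at 86.8 CPM, was the lowest of the MI libraries. Osm was highest in atherosclerosis replicate 4, at 151 CPM, where the neutrophil sum was 46165 CPM. The part of neutrophils in the Osm level was not tested.

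Lif encodes leukemia inhibitory factor and is the second gene of the pair on chromosome 11 (chr11:4257557-4272514). Control libraries held 1.01, 1.35 and 0.853 CPM, from 18, 25 and 22 counts, and hypertension libraries held 0.681, 0.876 and 0.551 CPM. Atherosclerosis libraries held 1.11, 0.529 and 0.509 CPM. MI libraries held 0.166, 0.370 and 0.463 CPM, from only 3, 7 and 8 counts. All 3 MI libraries lay below every library of the other groups. Against controls the log2 fold change in MI was -1.66 (SE 0.47, 95% interval -2.67 to -0.66), with an unadjusted p = 0.00345 and rank 22 of 15999, but an adjusted p = 1.00 in the quasi-likelihood test, and neither the likelihood-ratio test nor DESeq2 called it. The value ran from -1.96 to -1.35 over 12 fits that each left out 1 library. Directly compared, the log2 difference was 1.11 for atherosclerosis minus MI (SE 0.48, adjusted p = 0.360) and -1.07 for MI minus hypertension (SE 0.48, adjusted p = 0.585), both in the quasi-likelihood test. Without atherosclerosis replicate 2 the former was 0.64. In all 3 MI libraries, where Lif lay below controls, the B cell markers (195 to 427 CPM against 447 to 641 CPM) and the plasmacytoid dendritic cell markers (36.3 to 54.1 CPM against 73.9 to 75.9 CPM) also summed to less than in any control. MI replicate 2, the library with the least Lif and Il6, also had the highest neutrophil and monocyte marker sums, 96710 and 1994 CPM, and the lowest B cell, plasmacytoid dendritic cell and basophil and mast cell sums. Without it the log2 fold change of Lif against controls was -1.35. The part of these cells in the Lif difference was not tested.

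**Figure D4:**
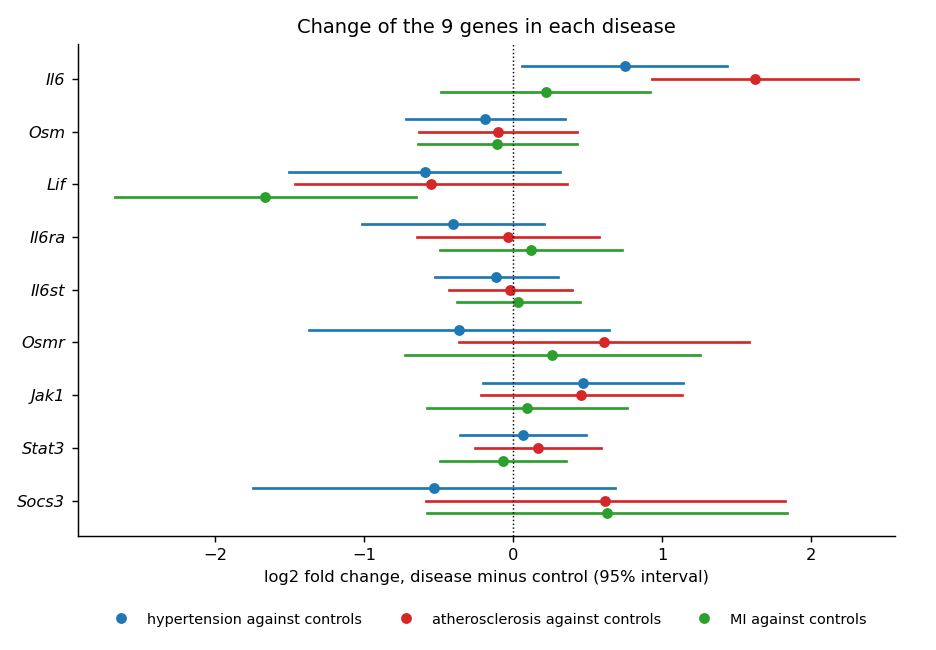
Log2 fold change of the 9 genes in each disease against controls (x axis), with points for the estimate and lines for the 95% interval of edgeR's quasi-likelihood fit. The interval of Il6 lies above 0 in hypertension and atherosclerosis and that of Lif below 0 in MI, before adjustment over all genes; every other interval includes 0.

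The 3 receptor genes did not pass the test in any disease. Il6ra, which encodes the Il6-binding chain (chr3:89864059-89913196), held 30.7, 47.0 and 25.8 CPM in controls, 21.3, 31.8 and 25.0 CPM in hypertension, 30.3, 29.5 and 41.3 CPM in atherosclerosis and 54.0, 26.3 and 32.0 CPM in MI. MI replicate 2 was the highest of the 12 libraries, as it was for neutrophil and monocyte markers. The log2 fold changes were -0.40 (SE 0.28), -0.03 (SE 0.28) and 0.12 (SE 0.28) in the same order of diseases. All 3 took the opposite sign once the monocyte marker sum was a covariate, so no direction is given. An antisense transcript, Gm42809, shares 242 exonic bases with Il6ra.

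Il6st, encoding gp130 (chr13:112464070-112510086), overlapped controls in every disease. It held 21.8, 29.9 and 32.3 CPM in controls, 28.2, 25.4 and 24.2 CPM in hypertension, 26.0, 21.8 and 35.1 CPM in atherosclerosis and 29.4, 30.4 and 26.4 CPM in MI. The log2 fold changes were -0.11, -0.02 and 0.04, with an SE of 0.19 each, and the 3 intervals together ran from -0.52 to 0.45, short of 0.94, the lower end of the interval of Il6 in atherosclerosis.

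Osmr, the oncostatin M receptor (chr15:6813577-6874969), rested on 11 to 52 counts per library. Control libraries held 0.673, 0.975 and 1.47 CPM and hypertension libraries 0.817, 0.788 and 0.851 CPM. Atherosclerosis libraries held 1.51, 0.646 and 2.65 CPM, the lowest and the highest of all 12, and MI libraries 1.49, 1.38 and 0.927 CPM. The log2 fold changes were -0.36 (SE 0.47), 0.61 (SE 0.45) and 0.26 (SE 0.46). The interval in atherosclerosis ran from -0.36 to 1.58.

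Jak1, the kinase bound to gp130 (chr4:101152367-101265282), was the most abundant of the 9. Control libraries held 413, 465 and 454 CPM. Hypertension libraries held 519, 500 and 825 CPM, all above the controls, for a log2 fold change of 0.47 (SE 0.31, adjusted p = 0.951 in the quasi-likelihood test). Without hypertension replicate 4, the highest, the value was 0.20. Atherosclerosis libraries held 979, 388 and 465 CPM, and the log2 fold change of 0.46 (SE 0.31) there rested on replicate 2, since it was -0.05 without that library. MI libraries held 370, 552 and 499 CPM, with a log2 fold change of 0.09 (SE 0.31). Stat3, the main transcription factor of the pathway (chr11:100885098-100939540), was lower than Jak1 per kilobase in every group. It held 189, 275 and 221 CPM in controls, 199, 263 and 254 CPM in hypertension, 274, 193 and 301 CPM in atherosclerosis and 205, 234 and 213 CPM in MI. Groups overlapped, and the log2 fold changes of 0.07, 0.17 and -0.07 were each smaller than their SE of 0.20. Stat3 shares 72 exonic bases with Stat5a on the other strand, and Jak1 shares 4 with overlapping annotations. Transcript levels do not measure the phosphorylation by which Stat3 is activated.

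Socs3, the feedback inhibitor (chr11:117966079-117970047), varied most among the 9 genes within atherosclerosis. Control libraries held 28.1, 18.8 and 17.5 CPM and hypertension libraries 21.5, 13.7 and 9.36 CPM. Atherosclerosis libraries held 9.56, 24.3 and 65.0 CPM, a 6.80-fold range with a coefficient of variation of 87.1%, while Il6 in the same libraries stayed within 1.03-fold. MI libraries held 55.3, 23.4 and 20.8 CPM. A single library raised the mean in each of the last 2 groups. The log2 fold changes against controls were -0.53 (SE 0.56), 0.62 (SE 0.56) and 0.63 (SE 0.56). Without atherosclerosis replicate 4 the second was -0.34, and without MI replicate 2 the third was 0.04.

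Counted together, 0 of the 9 genes passed an adjusted p of 0.05 in any of the 3 comparisons with controls in edgeR's quasi-likelihood test, where the share of all genes called was 0% in hypertension, 0.144% in atherosclerosis and 0% in MI. The likelihood-ratio test and DESeq2 each called 0, 1 and 0 of the 9, the 1 being Il6. In atherosclerosis these tests called 81 of 15999 and 79 of 19016 genes, against 23 of 15999 in the quasi-likelihood test. Over all genes each called 0 in hypertension and 1 in MI. At an unadjusted p under 0.05 each comparison had 1 member, Il6 in hypertension and atherosclerosis and Lif in MI, against 3.71%, 5.97% and 2.8% of all genes tested. By direction, 2.08% of genes were higher and 1.63% lower in hypertension, 3.97% and 2% in atherosclerosis, and 1.23% and 1.57% in MI. Libraries did not overlap for Il6 and Jak1 in hypertension, both above controls, against 9.02% of all genes above and 7.81% below. They did not overlap for Il6 in atherosclerosis (5.06% of all genes above, 4.45% below) or for Lif in MI (4.27% above, 4.59% below). The median log2 fold change of the 9 genes was -0.19 in hypertension, 0.17 in atherosclerosis and 0.09 in MI, beside -0.01, 0.01 and 0.00 over all genes tested. The 3 comparisons share the control libraries. Between diseases, 0 of the 9 passed the same quasi-likelihood test in any comparison, where 0.0625% of genes were called between atherosclerosis and hypertension, 0.269% between atherosclerosis and MI and 0% between MI and hypertension. At an unadjusted p under 0.05 these had 1 member (Il6), 2 members (Il6 and Lif) and 1 member (Lif), against 5.94%, 12.7% and 8.41% of all genes. The likelihood-ratio test and DESeq2 each called 1 of the 9 between atherosclerosis and MI, again Il6, and 0 in the other 2 comparisons. Between atherosclerosis and MI they called 274 of 15999 and 294 of 16303 genes, against 43 of 15999 in the quasi-likelihood test. They called 70 and 71 genes between atherosclerosis and hypertension, and 2 and 12 between MI and hypertension.

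The pathway was then followed in 54 further genes: other family cytokines, receptors and shedding enzymes, kinases and STATs, inhibitors, Stat3 targets and regulators of Il6 RNA. Of these, 50 were tested, and Il11, Cntf, Il31 and Cntfr were too low. None of the 50 passed an adjusted p of 0.05 in any disease in the quasi-likelihood, likelihood-ratio or DESeq2 test. At an unadjusted p under 0.05 there were 1 higher and 1 lower gene in hypertension, 4 and 1 in atherosclerosis, and 3 and 0 in MI, which is 2 of 50, 5 of 50 and 3 of 50 beside 3.71%, 5.97% and 2.8% of all genes tested. In hypertension 17 had a positive and 33 a negative estimate (median log2 fold change -0.10), with 2 entirely above controls and 10 entirely below, beside 9.02% and 7.81% of all genes. In atherosclerosis 35 were positive and 15 negative (median 0.10), with 3 above and 4 below, beside 5.06% and 4.45%. In MI the split was 24 to 26 (median -0.01), with 2 above and 1 below, beside 4.27% and 4.59%.

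Among the cytokines, 6 of 9 were tested. Ctf2, encoding a cardiotrophin, held 2.32, 3.28 and 3.30 CPM in MI, above 1.74, 1.73 and 1.09 CPM in controls, for a log2 fold change of 0.97 (SE 0.33, unadjusted p = 0.0107). Ebi3, a subunit of interleukin 27 and interleukin 35, held 27.7, 57.5 and 52.2 CPM in atherosclerosis and 56.8, 68.3 and 69.7 CPM in controls, with a log2 fold change of -0.50 (SE 0.26). Without atherosclerosis replicate 2 the value was -0.23. In hypertension Ebi3 held 54.0, 53.1 and 33.5 CPM, below every control, with a similar log2 fold change of -0.47 (SE 0.26).

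Receptors were represented by 6 tested genes of 7. Lifr, the Lif receptor, had controls at 14.5, 27.2 and 21.5 CPM and atherosclerosis libraries at 103, 18.5 and 37.4 CPM. Its log2 fold change of 1.34 (SE 0.59) was 0.42 without replicate 2, and it overlapped controls. Il31ra, a gp130-like receptor, held 3.29, 3.88 and 4.18 CPM in atherosclerosis, above 2.47, 2.65 and 2.09 CPM in controls, with a log2 fold change of 0.65 (SE 0.25, unadjusted p = 0.0196, adjusted p = 0.729 in the quasi-likelihood test).

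All 5 kinases and STATs were tested, with positive estimates for 5 of 5 in atherosclerosis and negative ones for 5 of 5 in MI. The median log2 fold changes were small, at 0.16 and -0.16, and the signs share the same controls. None of the 5 had an unadjusted p under 0.05 in either disease in the quasi-likelihood test. Stat5a, which relays cytokine signals such as those of interleukin 3 and GM-CSF, held 20.9, 21.9 and 21.5 CPM in hypertension, all below the 25.5, 26.0 and 30.1 CPM of controls, a log2 fold change of -0.34 (SE 0.15, unadjusted p = 0.0429).

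The 7 inhibitors included Cish, a relative of Socs3 that answers mainly to Stat5. It held 43.7, 9.90 and 6.66 CPM in MI and 5.69 to 6.78 CPM in controls, so the log2 fold change of 1.71 (SE 0.52) rested on MI replicate 2 and was 0.43 without it. Cish and Socs3 were both highest in MI replicate 2 among the MI libraries. Ptpn6, a phosphatase of blood cells, held 398, 419 and 356 CPM in hypertension and 368, 470 and 534 CPM in controls, with a log2 fold change of -0.23 (SE 0.18).

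Of the 16 Stat3 targets, 12 had negative estimates in hypertension, 5 in atherosclerosis and 8 in MI. Bcl2l1, which encodes the survival protein Bcl-xL, lay above controls in 2 diseases. It held 405, 407 and 943 CPM in hypertension and 957, 299 and 299 CPM in atherosclerosis, against 245, 234 and 256 CPM in controls, and in hypertension the log2 fold change was 1.26 (SE 0.43, unadjusted p = 0.0114). Without hypertension replicate 4 it was 0.73. Hypertension replicate 4 and atherosclerosis replicate 2 were also the highest libraries of their groups for Jak1, Lifr and Rc3h2. Saa3, an acute phase gene, had 144, 3 and 54 counts in MI, 5, 1 and 1 in controls, 7, 3 and 3 in hypertension and 1, 16 and 10 in atherosclerosis, so that 2 of 3 MI libraries stood far above the rest and the third did not (unadjusted p = 0.00121 and adjusted p = 1.00 in the quasi-likelihood test). Timp1, chosen here after its values were seen, was the single Stat3 target lower in atherosclerosis at an unadjusted p under 0.05, with 0, 2 and 4 counts against 10, 5 and 20 in controls.

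The 10 regulators of Il6 RNA bring about or limit its transcription and decay. Of these, 9 had positive estimates in atherosclerosis, 4 in hypertension and 4 in MI. In atherosclerosis their median log2 fold change was 0.20, beside 0.01 over all genes tested, and none lay entirely above or below controls. Single libraries raised some of these means: replicate 2 for Rc3h1 (186 CPM, against 62.1 and 48.6 CPM) and replicate 4 for Zc3h12a (7.74 CPM, against 2.85 and 3.70 CPM). Rc3h2, which encodes the RNA-decay protein roquin 2, held 419, 51.0 and 60.3 CPM in atherosclerosis against 58.6, 83.4 and 59.1 CPM in controls. The log2 fold change of 1.40 (SE 0.62) came from replicate 2 alone and was -0.25 without it. Arid5a, which stabilizes Il6 messenger RNA, held 46.6, 47.9 and 28.4 CPM in hypertension, below the 78.0, 64.1 and 61.8 CPM of controls, with a log2 fold change of -0.73 (SE 0.36, unadjusted p = 0.0611).

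**Figure D5:**
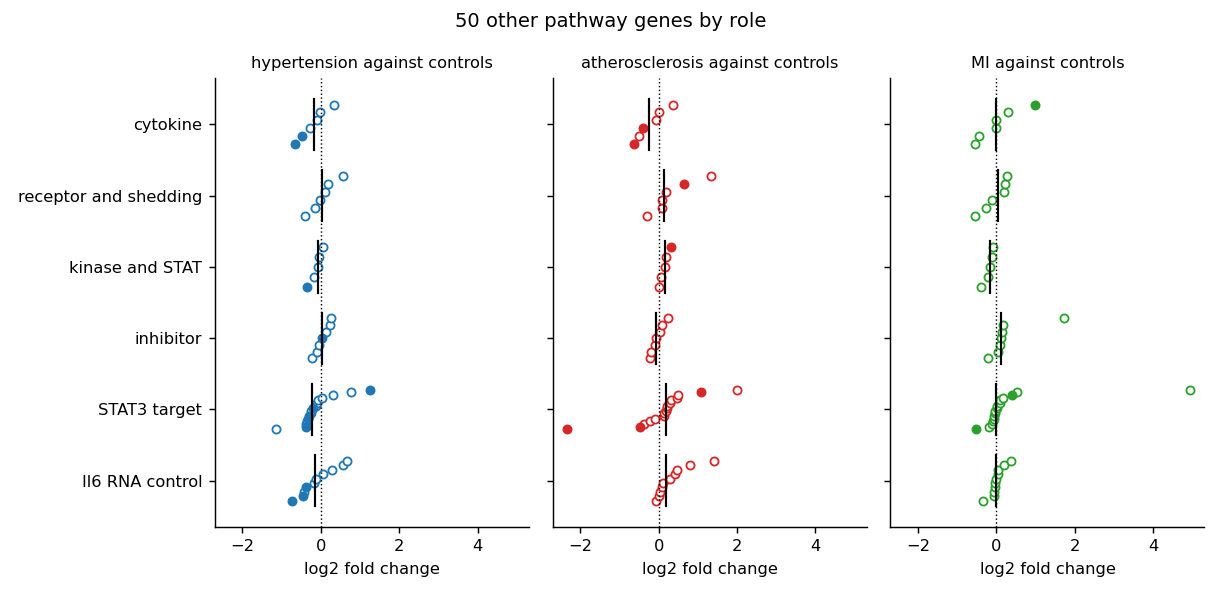
Log2 fold change of the 50 other pathway genes tested (x axes) in each disease against controls, by role (rows). Each circle is a gene, filled where the 3 disease libraries do not overlap the 3 controls, and black lines are medians; the filled circles are 12 in hypertension, 7 in atherosclerosis and 3 in MI, and none passed the adjusted test.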

How the data were processed

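Bone marrow cells sorted as TER-119-CD41-CD45-CD31hi SCA-1+ after lineage depletion were sequenced as polyA-selected, directional libraries. The authors aligned reads to GRCm38.p6 with STAR 2.7.3a (submitters' processing notes) and deposited raw gene counts, with no normalization; which strand column was taken is not given in the sources used here. Here, genes were filtered with filterByExpr, scaled by TMM and fitted in edgeR 4.0.16 (R 4.3.3) with 1 coefficient per group over all 12 libraries. The main test was the quasi-likelihood F-test with Benjamini-Hochberg adjustment over 15999 genes; a gene was called at an adjusted p under 0.05. Intervals are 95%. CPM are TMM-scaled, and exon lengths and positions are from GENCODE M21 (GRCm38), which held 55240 of the 55421 identifiers. Counting error is from Poisson sampling only.

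The members, gene lists and motifs were chosen with earlier results of these data known. Named were the 9 members, in each pathway role the 2 genes with the smallest unadjusted p in any disease against controls, the 5 genes most correlated with Il6, and Apoe; some of these are not reported here. Alternatives were the likelihood-ratio test, DESeq2 1.42.0, RLE scaling, no or stricter low-count filters, only 2 groups in the fit, marker-sum covariates, the replicate number as a block, and each library left out. On simulated counts for atherosclerosis against controls (15749 genes, 200 changed), the test called 84 of 100 genes changed by a log2 of 2, 32 of 100 changed by 1, and 7 unchanged genes.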

Additional observations from a re-analysis of the deposited data

How the results depend on the processing

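Over 52 single-gene values and 1133 alternative values, 1073 kept their direction and side of the threshold, 16 newly passed it, 12 no longer did (all Gata2 in atherosclerosis) and 32 took the opposite sign. The count of members called in atherosclerosis against controls was 0 in the main test and 1 with the likelihood-ratio test, DESeq2 or no low-count filter; leaving out single libraries gave 0 to 1, the 1 being without MI replicate 2. Between atherosclerosis and MI it was 1 under the same 3 settings, and without a low-count filter it was 1 between atherosclerosis and hypertension and 1 between MI and hypertension, Socs3 in both. Without that filter, pathway genes called were 1 in hypertension, 4 in atherosclerosis and 2 in MI, while 130 to 790 of 36003 genes were called per comparison; the cause was not tested. The log2 fold change of Il6 in atherosclerosis ran from 1.45 to 1.70.

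With the monocyte marker sum as covariate, hypertension values became 0.15 for Il6ra, 0.15 for Il6st, 0.21 for Osmr and 0.021 for Socs3, atherosclerosis values 0.21 for Il6ra and 0.086 for Il6st, and MI values -0.14 for Il6ra and -0.052 for Il6st; Il6ra between MI and hypertension became -0.29. With the endothelial sum, Il6ra in atherosclerosis became 0.10. Leaving out single libraries, hypertension values ran from -0.26 to 0.011 for Il6st and -0.054 to 0.22 for Stat3. Atherosclerosis values ran from -0.43 to 0.18 for Osm, -0.20 to 0.26 for Il6ra, -0.23 to 0.12 for Il6st, -0.047 to 0.70 for Jak1, -0.34 to 1.07 for Socs3 and -0.25 to 1.84 for Rc3h2. MI values ran from -0.014 to 0.50 for Il6, -0.19 to 0.026 for Osm, -0.24 to 0.41 for Il6ra, -0.12 to 0.16 for Il6st, -0.033 to 0.24 for Jak1 and -0.19 to 0.082 for Stat3.

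Replicate numbers 2, 3 and 4 recur in every group, and the labels do not say what they mark. Deviations of same-numbered libraries from their group means correlated at -0.28 to 0.30 (18 pairs), and 4 of 12 libraries correlated best with their own number. With 3 libraries per group, these values cannot show whether the numbers mark a shared preparation. With the replicate number as a block, Il6 in atherosclerosis had a log2 fold change of 1.63 (edgeR adjusted p = 0.138), and 0 members and 0 pathway genes were called in every comparison, as without it. Il6, Lif and Osmr rested on few counts, and Lif in MI replicate 2 was at the floor of 3 counts.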
